A study of Mus musculus with 9 samples.

Results

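The genes examined were 9 that encode surface proteins used to sort or label mammary stem and progenitor cells: Cd24a, Cd44, Itgb1, Itga6, Itgb3, Prom1, Kit, Ly6a and Thy1. A probe set, which is the group of short probes that an Affymetrix array holds for a transcript, was taken as a member where the platform's annotation gives it exactly 1 gene symbol and that symbol is one of the 9. This rule found 18 of 22626 probe sets, for 8 of the 9 genes and out of 12393 genes that have such a probe set. There were 6 probe sets for Itgb1, 3 for Cd24a, 2 each for Cd44, Itga6 and Kit, and 1 each for Itgb3, Prom1 and Thy1. No probe set carried the symbol Ly6a alone in that annotation, and Ly6a was not analysed here.

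RNA of 3 culture types was hybridized to 9 MOE430A arrays, with 3 arrays a group and 1 per RNA preparation. Tumorspheres (TMS) were non-adherent spheres grown in stem cell medium from independent mammary tumors of MMTV-Neu [N2O2] mice, in which the mammary tumor virus promoter drives the Neu receptor. The labels give no strain or age for these mice. Mammospheres induced to differentiate (diffMMS) were mammosphere cells that had been dispersed, plated on collagen and kept for 7 days in medium with serum. Mammospheres (MMS), to which both were set, came from glands of virgin female FVB/N mice of 6 to 8 weeks and were grown in the same stem cell medium. Spheres were passaged every 7 days and harvested between passages 3 and 5, so that all 3 groups are cultured cells and none was sorted with the markers described here. The diffMMS differ from the MMS in substrate, medium and time together, and the 3 cannot be told apart. The array codes of the TMS (1099A to 1101A) do not adjoin those of the MMS (858A to 860A) and diffMMS (861A to 863A), which follow each other, and no label says when the arrays were run. Any difference in handling that goes with these codes cannot be told apart from tumor origin in comparisons with TMS.

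CD24 and the integrins alpha 6 and beta 1 are the proteins by which mouse mammary epithelium is commonly divided, CD24 being strong on luminal cells and the integrins strong on basal cells, which include cells able to regenerate a gland. Integrin beta 3 and the receptor Kit have been used to separate luminal progenitors, prominin 1 marks a luminal population rich in hormone receptors, and the Ly6a product Sca-1 marks further luminal subsets. CD44 binds hyaluronan and THY1 is an anchored surface glycoprotein, and both are also found on stromal cells of the gland. Transcript levels in whole cultures do not show how much protein is on a cell or on which cells it sits.

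Of the 9 genes, 4 had an entry in the promoter table of RefSeq (build GRCm38.p6): Cd44, Itgb1, Prom1 and Kit. The 250 bases before the start, the most upstream one where several are listed, are given for the 3 of them that changed by the largest amounts below, in the gene's own direction and with motif matches in capitals. Matches were sought on both strands to TATAAA (the TATA box), the CCAAT box, the GC box GGGCGG, the core CTTTGA bound by TCF/LEF factors, its variant ending in T (CTTTGT), the AP-1 motif TGANTCA and the TEAD motif GGAATG, and no matches overlapped in these windows.
Prom1, chr5:44101737-44101986, minus strand: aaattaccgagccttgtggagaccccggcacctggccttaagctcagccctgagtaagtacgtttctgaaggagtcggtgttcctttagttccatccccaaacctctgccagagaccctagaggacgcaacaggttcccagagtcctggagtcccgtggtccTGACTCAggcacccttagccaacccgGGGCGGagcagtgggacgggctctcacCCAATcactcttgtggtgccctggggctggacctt
Kit, chr5:75574737-75574986, plus strand: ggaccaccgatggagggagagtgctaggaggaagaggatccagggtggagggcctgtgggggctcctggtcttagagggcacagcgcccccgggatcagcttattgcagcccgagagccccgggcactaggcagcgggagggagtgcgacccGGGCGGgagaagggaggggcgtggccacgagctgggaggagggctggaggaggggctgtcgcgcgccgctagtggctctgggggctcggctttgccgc
Cd44, chr2:102901666-102901915, minus strand: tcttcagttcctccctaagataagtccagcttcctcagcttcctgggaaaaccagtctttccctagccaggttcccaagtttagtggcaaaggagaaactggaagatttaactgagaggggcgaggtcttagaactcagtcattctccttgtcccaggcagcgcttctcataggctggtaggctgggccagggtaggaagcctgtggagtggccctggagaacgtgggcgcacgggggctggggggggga
The Prom1 window held a CCAAT box 35 to 31 bases before the start, a GC box 62 to 57 bases before it and an AP-1 match, written TGACTCA, 88 to 82 bases before it. The Kit window held a GC box 98 to 93 bases before the start, and the Cd44 window matched none of the motifs. The Itgb1 window (chr8:128685404-128685653, plus strand), not printed, held a GC box, CTTTGT and GGAATG. Among 32851 promoter windows of the same length, GGGCGG was present in 32.7%, CCAAT in 33.8%, CTTTGT in 16.5%, CTTTGA in 13.8%, GGAATG in 12.6%, TATAAA in 12.4% and TGANTCA in 6.75%. A match is a match of letters and was not tested as a binding site.

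Array medians lay between 83.8 and 88.3 intensity units, and Spearman correlations across probe sets within a group were at least 0.985 for TMS, 0.990 for diffMMS and 0.995 for MMS. Values are given on the log2 scale after addition of 8.67 and quantile normalization, a scale that understates the change of dim probe sets. Levels of different probe sets were set against each other for a percentile cut, the words bright and dim, the choice of a gene's brightest probe set and the sums of lists. No gene is ranked against another by its level. Erbb2, the mouse counterpart of the rat gene Neu, read 7.73, 7.66 and 7.50 in TMS, 7.43, 7.43 and 7.51 in diffMMS and 7.23, 7.31 and 7.31 in MMS. It was higher in TMS than in MMS by 0.34 (adjusted p = 0.0127 by limma) and did not pass in the other comparisons, and whether its probe set also reads the transgene was not tested. The epithelial label of the cultures was checked against 14 luminal and 11 basal genes, by how many had a group mean below the 25th percentile of all probe set means (5.59). Of the luminal genes these were 3 in TMS, 8 in diffMMS and 7 in MMS, and of the basal genes 1 in TMS, 2 in diffMMS and 2 in MMS. Cdh1, the gene of E-cadherin, was among them in the normal cultures, with means of 5.96 in TMS, 4.12 in diffMMS and 4.18 in MMS. Krt8 and Epcam were not, with means of 10.55 and 9.86 in TMS, 7.26 and 6.07 in diffMMS and 7.30 and 6.31 in MMS. The epithelial markers thus did not all speak alike for diffMMS and MMS, and without detection calls their presence was not settled. A mean above 5.59 is also no sign of epithelium, because genes of other cells lay above it. The T cell gene Cd3e averaged 7.56 in TMS, 7.88 in diffMMS and 7.60 in MMS. The fibroblast genes Col1a1 and Dcn averaged 11.94 and 12.18 in TMS, 13.08 and 11.57 in diffMMS and 12.18 and 12.07 in MMS.

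More member probe sets were higher in TMS than the share over the whole array. Of the 18, 9 passed the test (limma, adjusted p under 0.05 over 22626 probe sets) in TMS against MMS, where 14.3% of all probe sets passed. These 9 were all higher in TMS, against 6.5% higher and 7.77% lower over the array. With median centring 9 were higher and 1 lower, and with array weights 9 were higher and 2 lower, the lower ones being dim probe sets of Itgb1. The 3 TMS arrays lay outside the range of the 3 MMS arrays for 11 of 18, against 33.3% of all. In TMS against diffMMS, 11 of 18 passed, all higher in TMS, where 23.7% of all probe sets passed, 12.2% higher and 11.5% lower. The groups did not overlap for 13 of 18, against 37.5% of all. In diffMMS against MMS, 6 of 18 passed, near the 33.1% of all probe sets. Of these, 2 were higher and 4 lower in diffMMS, where 16.2% of the array was higher and 16.9% lower, and 10 of 18 did not overlap, against 51.6% of all. Counted by gene through the probe set of the highest mean, 5 of 8 genes passed in TMS against MMS, 6 of 8 in TMS against diffMMS and 4 of 8 in diffMMS against MMS. Counted through any probe set of a gene, they were 6, 6 and 5, with Cd44 added in TMS against MMS and Kit in diffMMS against MMS. No share over all genes counted in either way was taken, and these gene counts are not compared with the array. The median log2 fold change of the 8 genes was 0.84 in TMS against MMS, 1.0 in TMS against diffMMS and -0.22 in diffMMS against MMS, beside -0.0015, -0.019 and 0.030 over all probe sets. The 3 comparisons share arrays by pairs and are not independent of each other.

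**Figure D1:**
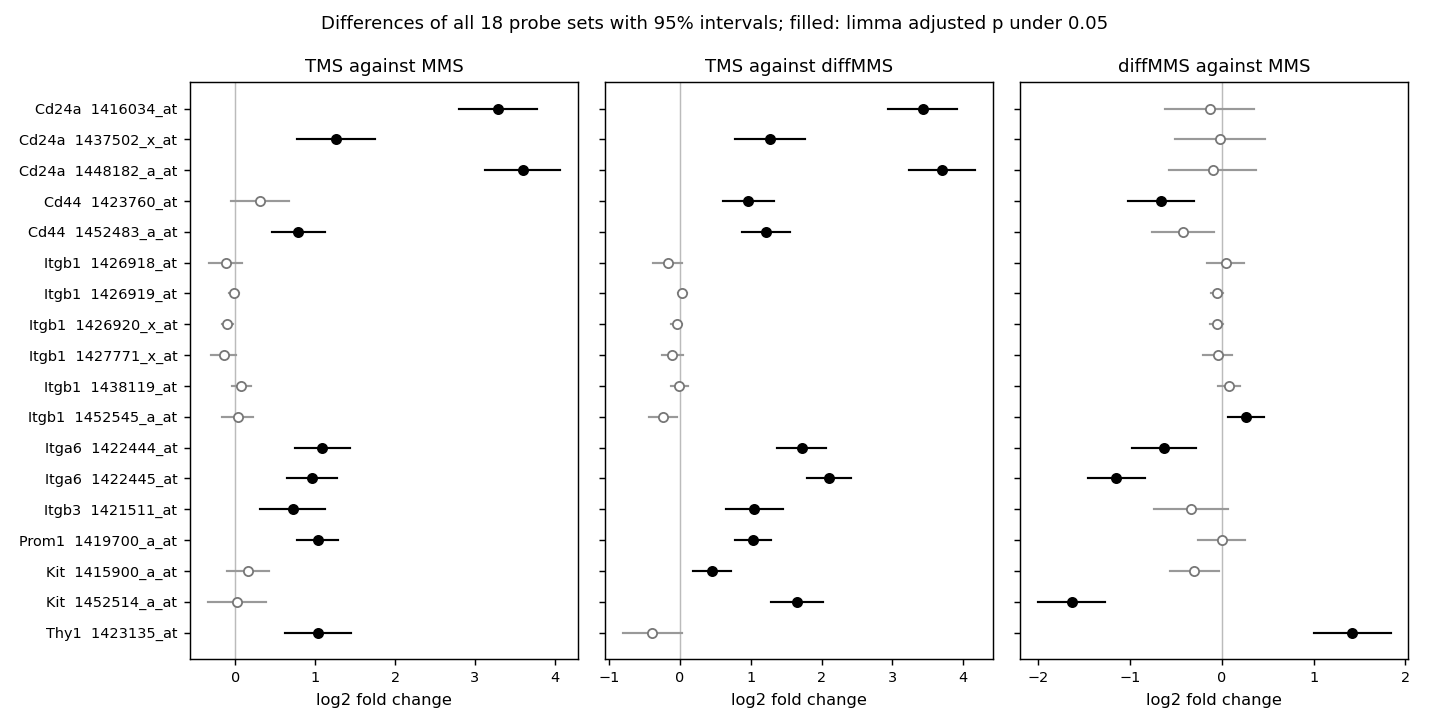
Log2 fold change (x axis) of the 18 probe sets in TMS against MMS, TMS against diffMMS and diffMMS against MMS, with bars for the 95% interval and filled points for those past the limma threshold. The Cd24a probe sets 1416034_at and 1448182_a_at lie above 3 in both comparisons with TMS and near 0 in the third, whereas Kit 1452514_a_at is near 0 in TMS against MMS and Thy1 is on the positive side in diffMMS against MMS.

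Cd24a, the gene of the heat stable antigen by which luminal cells are recognized, had the largest difference among the members. Its probe set 1416034_at gave log2 intensities of 8.38, 7.61 and 8.84 in TMS, 4.94, 4.75 and 4.87 in diffMMS and 4.91, 4.96 and 5.09 in MMS. The TMS arrays were far above all others, and the other groups overlapped. On the deposited scale the same arrays read 311, 188 and 481 units in TMS, 23.3, 18.5 and 21.0 in diffMMS and 20.9, 21.7 and 24.3 in MMS. The log2 fold change was 3.29 in TMS against MMS (standard error 0.22, adjusted p = 3.03e-06 by limma), or 9.79-fold on this scale, and 3.43 in TMS against diffMMS (adjusted p = 3.91e-07). In diffMMS against MMS the difference was -0.13, with a 95% interval of -0.62 to 0.35. The size depends on the pseudocount, being 3.71 in TMS against MMS and 3.90 in TMS against diffMMS with none, and 2.39 and 2.45 with one of 43.3. A second probe set, 1448182_a_at, gave 7.89, 7.69 and 8.79 in TMS, 4.28, 4.55 and 4.44 in diffMMS and 4.38, 4.51 and 4.68 in MMS, that is 3.60 in TMS against MMS (adjusted p = 1.01e-06) and 3.70 in TMS against diffMMS (adjusted p = 1.49e-07), the first of these being 4.24 with no pseudocount and 2.45 with the larger one. The third, 1437502_x_at, was dim throughout diffMMS and MMS, at 4.01 to 4.09, and reached 4.83, 5.03 and 6.06 in TMS. Its difference of 1.26 in TMS against MMS (adjusted p = 0.00319) became 0.56 with the larger pseudocount and 1.93 with none, and an x in a probe set's name marks probes that also match other transcripts. In whole cultures, more cells with a transcript and more transcript per cell cannot be told apart.

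Most of the measured markers of luminal epithelium moved with Cd24a in the comparisons with TMS. Of 14 measured luminal genes, 9 were higher and 0 lower in TMS against MMS, and the same counts held in TMS against diffMMS. Their summed intensities on the deposited scale were 4727 to 8081 in TMS, 880.1 to 1067 in diffMMS and 821.4 to 914.3 in MMS. Krt18, a keratin of simple epithelium, was 9.79, 10.15 and 10.67 in TMS, 5.29, 5.54 and 5.66 in diffMMS and 5.58, 5.94 and 6.27 in MMS. The keratin gene Krt19 did not pass in TMS against MMS (0.068) or in TMS against diffMMS (-0.32). In diffMMS against MMS, where Cd24a did not pass, 2 of the 14 were higher and 0 lower. These were Krt19 (0.39, adjusted p = 0.0202 by limma) and the claudin gene Cldn3 (0.57, adjusted p = 0.0357). Esr1, Pgr, Cited1 and Foxa1, which mark hormone receptor positive luminal cells, did not pass in any of the comparisons, and Pgr, Cited1 and Foxa1 had group means below 5.59 in all 3 groups. The part of these cells in the Cd24a result was not tested.

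Prom1, which encodes the pentaspan membrane protein prominin 1, was also higher in TMS than in both normal cultures, by a smaller step. It gave 6.87, 6.59 and 6.98 in TMS, 5.87, 5.92 and 5.55 in diffMMS and 5.69, 5.82 and 5.83 in MMS. The TMS arrays did not overlap the others. The log2 fold change was 1.03 in TMS against MMS (standard error 0.12, adjusted p = 1.61e-04 by limma) and 1.03 in TMS against diffMMS (adjusted p = 4.62e-05). Between diffMMS and MMS the difference was -0.0032, with an interval of -0.26 to 0.25. As for Cd24a, the luminal marker sum moved with Prom1. The hormone receptor positive markers Esr1, Pgr, Cited1 and Foxa1 did not pass in any comparison. Of these, Pgr, Cited1 and Foxa1 had group means below 5.59 in all 3 groups, where the scale understates change. The part of luminal cells in the Prom1 result was not tested.

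Itga6, the gene of the laminin receptor subunit alpha 6 that pairs with beta 1 or beta 4, fell into 3 steps. Its probe set 1422445_at gave 8.09, 8.42 and 8.70 in TMS, 6.53, 6.31 and 6.07 in diffMMS and 7.39, 7.46 and 7.51 in MMS. No array of one group entered the range of another. TMS were above MMS by 0.95 (standard error 0.14, adjusted p = 0.00115 by limma) and above diffMMS by 2.10 (adjusted p = 6.10e-07), a 4.30-fold difference. The diffMMS were below MMS by 2.22-fold (log2 fold change -1.15, adjusted p = 8.79e-05). The second probe set, 1422444_at, gave 7.39, 7.49 and 8.01 in TMS, 6.17, 5.74 and 5.81 in diffMMS and 6.69, 6.37 and 6.57 in MMS, in the same order. Its log2 fold changes were 1.09 in TMS against MMS, 1.72 in TMS against diffMMS and -0.63 in diffMMS against MMS (adjusted p = 9.45e-04, 8.72e-06 and 0.00963).

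Itgb1, which encodes the beta 1 subunit shared by most collagen, laminin and fibronectin receptors, was bright in all cultures and differed little. The brightest of its probe sets, 1452545_a_at, gave 10.17, 10.41 and 10.37 in TMS, 10.44, 10.58 and 10.63 in diffMMS and 10.42, 10.25 and 10.19 in MMS. TMS and MMS overlapped, with a difference of 0.029 and an interval of -0.17 to 0.22. The difference between diffMMS and MMS was 0.26 (standard error 0.090, adjusted p = 0.0427 by limma), and this call was lost when the values were used as deposited (0.0081) or centred on the array median (-0.040), and without any 1 of the arrays 859A, 860A, 862A and 863A (0.21 to 0.25). The other bright probe set, 1426918_at, gave 9.55, 9.64 and 9.75 in TMS, 9.64, 9.90 and 9.89 in diffMMS and 9.65, 9.80 and 9.86 in MMS, and did not pass in any comparison. The remaining 4 Itgb1 probe sets had means below the 25th percentile of the array, did not pass in any comparison, and 2 of them, 1426920_x_at and 1427771_x_at, carry the x in their names. The largest of their differences was -0.15, in TMS against MMS for 1427771_x_at, and it passed with array weights (-0.19, adjusted p = 0.0249). In the same comparison 1426920_x_at had a difference of -0.10, which became -0.12 under median centring and -0.094 under array weights and passed in both (adjusted p = 0.0423 and 0.0380).

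Itgb3, the gene of the beta 3 subunit, was higher in TMS. It gave 7.56, 7.87 and 8.19 in TMS, 7.05, 6.63 and 6.79 in diffMMS and 7.32, 6.76 and 7.38 in MMS. All TMS arrays lay above the others, with gaps to the nearest MMS array that were smaller than the spread within either group, and diffMMS overlapped MMS. The log2 fold change was 1.05 in TMS against diffMMS (standard error 0.18, adjusted p = 0.0014 by limma) and 0.72 in TMS against MMS (adjusted p = 0.0227). The call in TMS against MMS was lost without TMS array 1100A (0.72) or MMS array 859A (0.51), with an adjusted p of up to 0.0968. In diffMMS against MMS the difference was -0.33, with an interval of -0.74 to 0.069, and it passed without array 859A (-0.52, adjusted p = 0.0475).

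Cd44, the gene of the hyaluronan receptor, was lowest in diffMMS, and its probe sets gave different calls between TMS and MMS. Probe set 1423760_at gave 8.11, 8.56 and 8.60 in TMS, 7.17, 7.66 and 7.55 in diffMMS and 8.31, 7.83 and 8.23 in MMS. TMS and MMS overlapped and both lay above diffMMS. TMS exceeded diffMMS by 0.97 (standard error 0.17, adjusted p = 0.00119 by limma), and diffMMS were 1.58-fold below MMS (log2 fold change -0.66, adjusted p = 0.0094), while the difference of TMS against MMS was 0.30, with an interval of -0.060 to 0.67. Probe set 1452483_a_at gave 7.89, 8.36 and 8.49 in TMS, 6.82, 7.01 and 7.27 in diffMMS and 7.45, 7.31 and 7.61 in MMS, 3 ranges without overlap. With it TMS were above MMS by 0.79 (adjusted p = 0.0052) and above diffMMS by 1.22 (adjusted p = 1.20e-04), and the difference of -0.43 in diffMMS against MMS missed the threshold (adjusted p = 0.0518) but passed without any 1 of the arrays 1099A, 1101A and 863A (-0.42 to -0.55, lowest adjusted p = 0.0150). With the 2 probe sets averaged, TMS were above MMS by 0.55 (adjusted p = 0.0378 over 12393 genes) and diffMMS below MMS (log2 fold change -0.55, adjusted p = 0.0186).

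Kit, the receptor tyrosine kinase for stem cell factor, separated diffMMS from the spheres in one probe set and less so in the other. Probe set 1452514_a_at gave 7.27, 6.78 and 7.28 in TMS, 5.84, 5.18 and 5.33 in diffMMS and 6.97, 7.24 and 7.07 in MMS. TMS and MMS overlapped and diffMMS lay below both. TMS exceeded diffMMS by 1.66 (standard error 0.17, adjusted p = 1.95e-05 by limma), and diffMMS were 3.11-fold below MMS (log2 fold change -1.64, adjusted p = 1.75e-05). For TMS against MMS the difference was 0.019, with an interval of -0.35 to 0.39. Probe set 1415900_a_at gave 7.09, 6.58 and 6.78 in TMS, 6.45, 6.19 and 6.45 in diffMMS and 6.61, 6.75 and 6.63 in MMS. TMS were above diffMMS by 0.45 (adjusted p = 0.0176), a call that was lost without diffMMS array 862A (0.37, adjusted p = 0.0735). The difference between diffMMS and MMS was -0.30 (adjusted p = 0.0762), which passed without array 1099A or 1100A (lowest adjusted p = 0.0284), and that between TMS and MMS 0.15 (interval -0.11 to 0.42). Mast cells, which depend on Kit, have markers that moved in part with it. Cpa3 and Tpsb2, genes of mast cell proteases, were 2 of 6 measured mast cell genes that were lower in diffMMS against MMS, and both were also lower in TMS against MMS, where Kit did not pass. The summed mast cell list was 332.7 to 389.7 units in TMS, 374.9 to 432.7 in diffMMS and 466.4 to 562.9 in MMS. Its part in the Kit result was not tested.

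Thy1 ran opposite to Kit and Itga6 in the differentiated cells. It gave 10.10, 9.80 and 9.07 in TMS, 9.92, 10.09 and 10.12 in diffMMS and 8.65, 8.60 and 8.62 in MMS. The MMS were lowest and close together, and TMS spread over 1 log2 unit that took in most of the diffMMS range. Thy1 was above MMS by 1.42 in diffMMS (standard error 0.19, adjusted p = 1.54e-04 by limma), or 2.68-fold, and by 1.03 in TMS (adjusted p = 0.00384). Between TMS and diffMMS the difference was -0.39, with an interval of -0.80 to 0.031, and it rested on single TMS arrays, at -0.094 without 1101A (adjusted p = 0.559) and -0.60 without 1099A (adjusted p = 0.0194). Among genes of other cells that carry THY1, 4 of 10 measured fibroblast genes were higher and 4 lower in diffMMS against MMS. Their summed intensities were 27830 to 31570 in TMS, 37260 to 39100 in diffMMS and 34180 to 34740 in MMS. Of 6 measured T cell genes, Cd3d, Cd4 and Cd2 were higher in diffMMS against MMS, by 0.29, 0.24 and 0.24, and 0 passed in TMS against MMS. The T cell sums were 414.9 to 476.8 units in TMS, 489.3 to 590.3 in diffMMS and 421.7 to 458 in MMS, and Cd2, Cd3g and Cd8a had group means below 5.59 in all 3 groups. The part of either cell type in the Thy1 result was not tested.

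**Figure D2:**
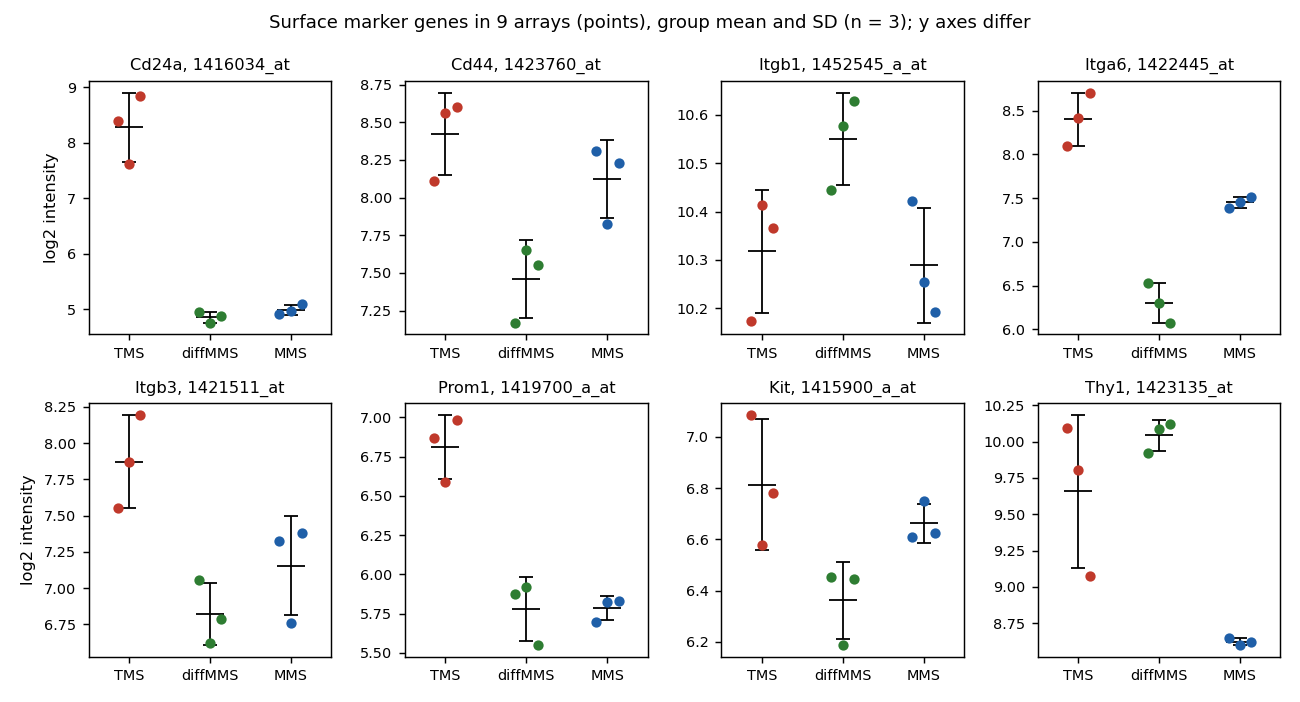
Log2 intensity of the probe set of the highest mean for 8 genes in the 9 arrays (points), with the mean and SD of each group of 3 as bars and a y axis of its own for each gene. Cd24a and Prom1 are high in TMS alone, Itga6 falls into 3 steps with diffMMS lowest, and Thy1 is lowest in MMS, at 8.60 to 8.65.

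**Figure D3:**
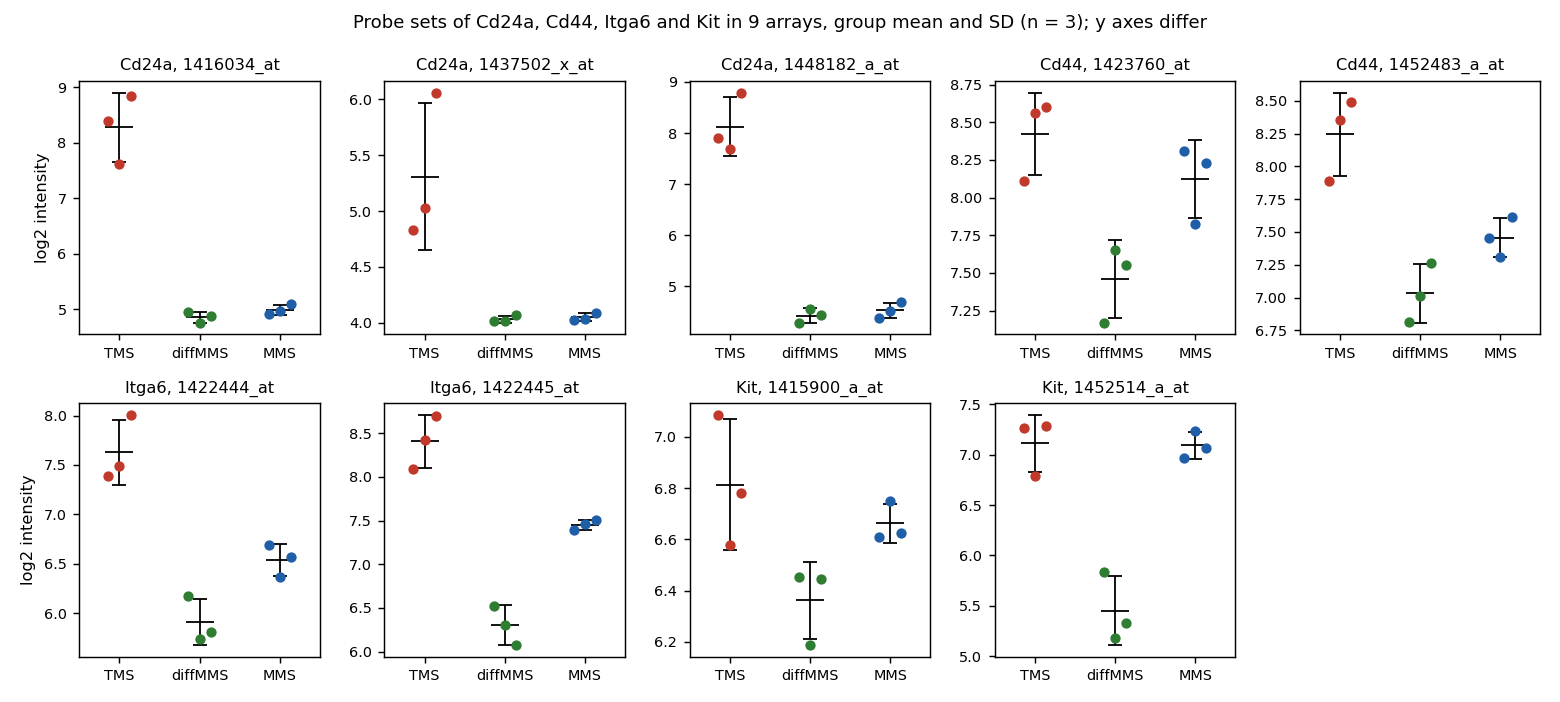
Log2 intensity of every probe set of Cd24a, Cd44, Itga6 and Kit in the 9 arrays (points), with the group mean and SD (n = 3) and a y axis of its own for each panel. The Kit probe set 1452514_a_at puts diffMMS at 5.18 to 5.84, clear of TMS and MMS, whereas 1415900_a_at spans only 6.19 to 7.09 over all arrays.

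The order of the groups therefore differed between members. For Cd24a and Prom1 it was TMS above MMS and diffMMS, which did not differ beyond their spread. For Itga6 it was TMS, then MMS, then diffMMS, each step past the threshold. Itgb3 followed the same order of means without a call for the last step, as did Cd44 1452483_a_at. In Cd44 1423760_at and Kit 1452514_a_at, TMS and MMS did not differ beyond their spread and stood above diffMMS, and for Thy1 diffMMS and TMS did not and stood above MMS.

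The 3 TMS cultures, each from its own tumor, also differed among themselves. Array 1101A was the highest of the 3 for 5 of 8 genes, namely Cd24a, Cd44, Itga6, Itgb3 and Prom1, and the lowest for Thy1. The SD of the TMS arrays was 0.62 for Cd24a and 0.53 for Thy1, against 0.10 and 0.11 in diffMMS and 0.10 and 0.026 in MMS. The summed luminal markers were 8081 units in array 1101A and 4727 and 4904 in the others. With 3 arrays no relation between these values was tested.

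Further surface markers of mammary stem and progenitor cells were examined as a list of 16, all of which were measured. In TMS against MMS 3 were higher and 1 lower, in TMS against diffMMS 7 were higher and 2 lower, and in diffMMS against MMS 3 were higher and 4 lower. Their median log2 fold changes were 0.084, 0.34 and -0.12 in these comparisons. Over all probe sets 14.3%, 23.7% and 33.1% passed in them, higher and lower together, and these shares also stand beside the lists below. Each list takes the brightest probe set of a gene, so its counts are not strictly like the shares. Epcam, the epithelial adhesion molecule used with integrin alpha 6 to sort mammary cells, was 9.99, 9.64 and 9.96 in TMS, 6.01, 5.93 and 6.28 in diffMMS and 6.10, 6.35 and 6.46 in MMS. It was thus above MMS by 3.56 (adjusted p = 2.80e-08 by limma) and above diffMMS by 3.79 (adjusted p = 2.51e-09). Cd14, a lipopolysaccharide co-receptor also found on luminal progenitors, was above MMS by 1.41 in TMS (adjusted p = 4.91e-06) and by 0.47 in diffMMS (adjusted p = 0.00358). Abcg2, the drug efflux pump of side population cells, was 6.49, 6.57 and 6.73 in TMS, 5.75, 6.23 and 6.17 in diffMMS and 7.26, 7.28 and 7.33 in MMS, and thus highest in MMS, with log2 fold changes of -0.70 in TMS (adjusted p = 0.00228) and -1.24 in diffMMS (adjusted p = 8.77e-06). Mme, the peptidase CD10, was higher in TMS than in diffMMS by 0.97 (adjusted p = 3.18e-04), and the tetraspanin gene Cd9 was lower in diffMMS than in MMS (log2 fold change -1.03, adjusted p = 1.48e-06). Lgr5, a receptor for R-spondins, was highest in diffMMS, at 0.56 in diffMMS against MMS (adjusted p = 7.10e-04) and -0.62 in TMS against diffMMS (adjusted p = 4.13e-04).

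Ligands and partners of the members formed a list of 28 genes, of which 23 were measured. In TMS against MMS 4 were higher and 1 lower, in TMS against diffMMS 7 were higher and 5 lower, and in diffMMS against MMS 4 were higher and 5 lower, with median log2 fold changes of 1.5e-04, 0.10 and 0.13. The shares of all probe sets that passed were 14.3%, 23.7% and 33.1%. Kitl, the ligand of Kit, was 7.68, 8.28 and 7.93 in TMS, 6.24, 5.94 and 6.58 in diffMMS and 8.04, 8.15 and 8.17 in MMS. Like Kit 1452514_a_at, it was lower in diffMMS than in MMS (log2 fold change -1.87, adjusted p = 4.32e-06 by limma) and higher in TMS than in diffMMS (1.71, adjusted p = 1.10e-05). Itgav, the alpha subunit that pairs with beta 3, was 11.16, 10.99 and 10.91 in TMS, 9.60, 9.68 and 9.67 in diffMMS and 11.63, 11.80 and 11.54 in MMS, lower in TMS than in MMS (log2 fold change -0.64, adjusted p = 6.39e-04) and lower in diffMMS than in MMS (log2 fold change -2.00, adjusted p = 1.50e-08), with TMS above diffMMS by 1.36 (adjusted p = 3.55e-07). Itgb4, the partner of alpha 6 in hemidesmosomes, was above MMS by 0.69 in TMS (adjusted p = 7.42e-04), and Lamb3, a chain of the laminin that this pair binds, by 0.64 (adjusted p = 0.00119). Itga7 and Itga3, alpha subunits that pair with beta 1, were above MMS by 0.48 and 0.38 in diffMMS (adjusted p = 0.00268 and 0.00295). Has1, a synthase of the CD44 ligand hyaluronan, was lower in TMS than in diffMMS (log2 fold change -0.33, adjusted p = 0.0152), as was Itga7 (log2 fold change -0.48, adjusted p = 0.00347).

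**Figure D4:**
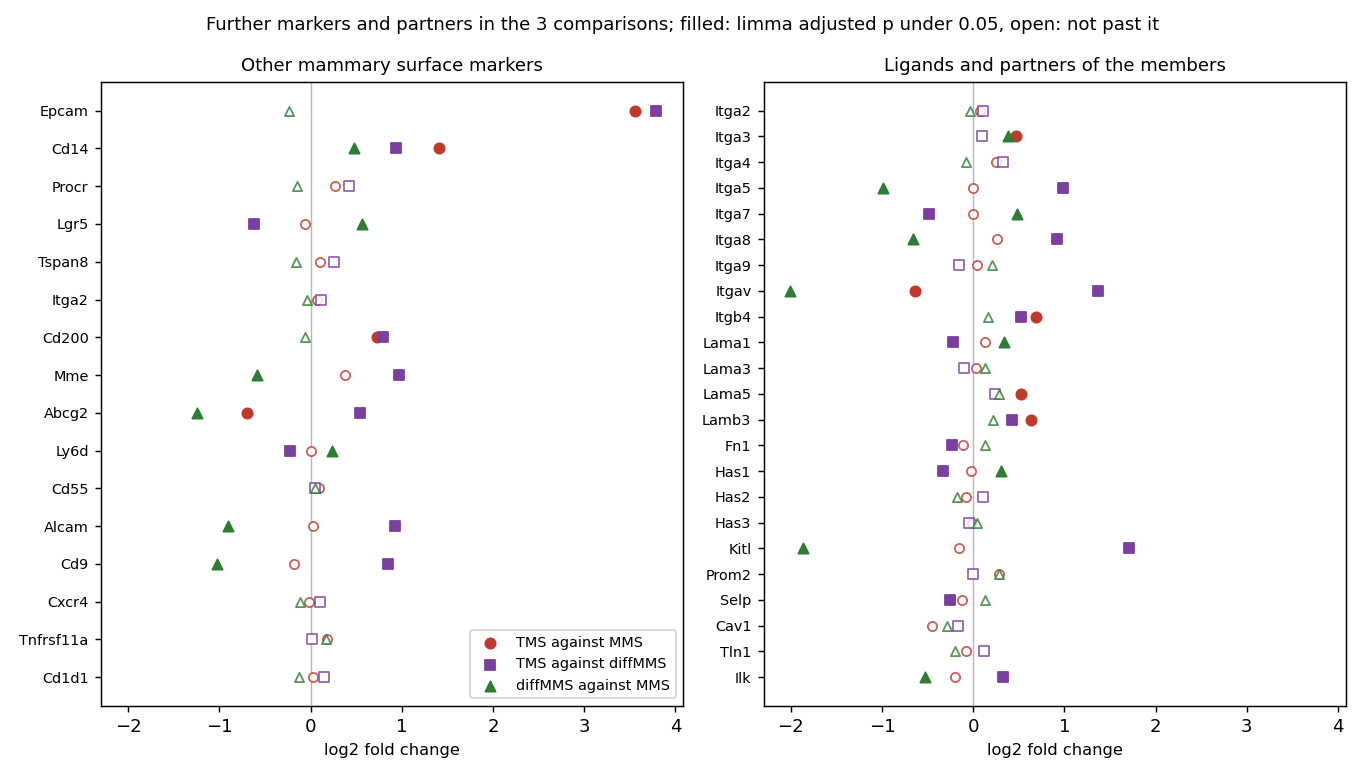
Log2 fold change (x axis) of the 16 further surface markers and the 23 measured ligands and partners in TMS against MMS (circles), TMS against diffMMS (squares) and diffMMS against MMS (triangles), filled where past the limma threshold. Epcam stands apart at 3.56 and 3.79, and Itgav and Kitl lie at -2.00 and -1.87 in diffMMS against MMS.

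Of 5 genes that act on Cd44 transcripts or protein, 2 were higher and 1 lower in TMS against MMS, 3 were higher and 0 lower in TMS against diffMMS, and 0 were higher and 2 lower in diffMMS against MMS. Their median log2 fold changes were 0.24, 0.54 and -0.11. Esrp1, an epithelial splicing factor that favors variant exons of Cd44, was 6.80, 6.34 and 7.45 in TMS, 5.12, 5.01 and 5.11 in diffMMS and 5.29, 5.12 and 5.18 in MMS, a difference of 1.67 in TMS against MMS (adjusted p = 2.37e-04 by limma) and of 1.78 in TMS against diffMMS (adjusted p = 4.22e-05). Its relative Esrp2 was above MMS by 0.54 in TMS (adjusted p = 0.00422). The proteases Adam17 and Mmp14, which can cleave CD44, were lower in diffMMS than in MMS (log2 fold change -0.62, adjusted p = 5.10e-04, and -1.14, adjusted p = 1.68e-05), and Mmp14 was above diffMMS by 0.85 in TMS (adjusted p = 2.11e-04). Adam17 was also the 1 lower in TMS against MMS (log2 fold change -0.40, adjusted p = 0.0168). The arrays do not tell which exons of Cd44 were used.

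In place of Ly6a, the other genes of its family are given as a list only. Of 8 relatives 4 were measured, and their probe sets may share targets because the family's sequences are alike. In TMS against MMS 0 were higher and 0 lower, in TMS against diffMMS 0 were higher and 2 lower, and in diffMMS against MMS 1 was higher and 0 lower, with median log2 fold changes of -0.15, -0.20 and 0.13. The 2 were Ly6d (-0.23, adjusted p = 0.0318 by limma) and Ly6i (-0.38, adjusted p = 0.0188), and Ly6d was the 1 higher in diffMMS against MMS (0.24, adjusted p = 0.0202).

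Marker genes of other cell types are given by their counts, and no cell composition was tested. These counts take the brightest probe set of each gene, unlike the shares of all probe sets above. Of 11 basal and myoepithelial genes, 7 were higher in diffMMS against MMS and 0 lower, 0 were higher and 0 lower in TMS against MMS, and 1 was higher and 7 lower in TMS against diffMMS, with summed intensities of 1118 to 1213 in TMS, 3763 to 5842 in diffMMS and 1036 to 1097 in MMS. The 7 included Tagln and Acta2, contractile genes also expressed by fibroblasts in culture, at 3.73 and 2.60 (adjusted p = 2.13e-09 and 1.56e-07 by limma). The others were Mylk, Cnn1, Cdh3, Trp63 and Myh11, at 1.98, 0.83, 0.33, 0.32 and 0.19, and Krt5 and Krt14 were not among the 7. Of 9 macrophage and leukocyte genes, 2 were higher and 0 lower in TMS against MMS, with sums of 1191 to 1890 in TMS, 707 to 1065 in diffMMS and 638.2 to 698.4 in MMS. In TMS against diffMMS 2 of these were higher and 0 lower, and in diffMMS against MMS 2 were higher and 1 lower. The 2 higher in TMS against MMS were Lyz2 (2.29, adjusted p = 7.81e-04 by limma) and Csf1r (0.43, adjusted p = 0.0296). Lyz2 was 9.37, 10.32 and 9.21 in TMS, 8.70, 8.38 and 7.35 in diffMMS and 7.46, 7.45 and 7.11 in MMS. The leukocyte gene Ptprc did not pass in any comparison, at 4.94 to 5.11 in TMS, 4.85 to 4.98 in diffMMS and 4.85 to 4.88 in MMS. Of 9 endothelial genes, 0 were higher and 4 lower in TMS against MMS, 0 higher and 5 lower in TMS against diffMMS, and 1 higher and 1 lower in diffMMS against MMS, with sums of 748.7 to 815.9 in TMS, 964.5 to 983.4 in diffMMS and 844.3 to 888.3 in MMS. Of the fibroblast genes, 0 were higher and 3 lower in TMS against MMS, and 3 were higher and 5 lower in TMS against diffMMS. The part of these cells in the results for the members was not tested.

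For each member whose brightest probe set had a called log2 fold change of at least 1, which leaves out Cd44, Itgb1 and Kit, the genes with the most similar profile over the 9 arrays were sought by the root mean square difference of log2 values after each was centred on its own mean. For Cd24a these were the claudin genes Cldn7 (0.184) and Cldn3 (0.229, through probe set 1460569_x_at). Cldn7 averaged 9.12 in TMS, 5.83 in diffMMS and 6.05 in MMS. For Prom1 they were Gabrp (0.103), a GABA receptor subunit, and the adhesion gene Ceacam1 (0.119), which averaged 7.72 and 6.57 in TMS, 6.79 and 5.47 in diffMMS and 6.69 and 5.41 in MMS. For Itga6 they were Mtss1 (0.143), which encodes a membrane and actin scaffold, and the transcriptional inhibitor Id2 (0.188). Mtss1 averaged 8.03 in TMS, 5.80 in diffMMS and 7.13 in MMS, in 3 steps as Itga6 did. For Itgb3 they were the galactosyltransferase gene B4galt5 (0.172) and the TWEAK receptor gene Tnfrsf12a (0.173), and for Thy1 the phosphofructokinase gene Pfkl (0.188) and Rpf2 (0.239), a ribosome assembly factor. Pfkl averaged 9.18 in TMS, 9.47 in diffMMS and 7.91 in MMS. These are descriptions over 9 arrays that share their 3 groups and carry no test.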

How the data were processed

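Total RNA of 3 tumorsphere, 3 differentiated mammosphere and 3 mammosphere preparations was hybridized by the authors to MOE430A Gene Chips. The authors deposited 1 table of linear probe set intensity values with 22690 rows and 9 array columns. Its values, the lowest 5.77, were already summarised, and the method is not given in the sources used here beyond the name Genespring. No detection calls were used, and precision is limited by the 3 arrays of a group.

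The 64 Affymetrix controls were left out. To the deposited intensity 8.67 was added (10% of the median of all values) before log2 was taken. The largest quartile gap between arrays was 0.134 on this scale, over the limit of 0.1, and the arrays were therefore brought to common quantiles. A model of 3 group means was fitted by lmFit of limma 3.58.1 (R 4.3.3), leaving 6 residual degrees of freedom, and moderated by eBayes with an intensity trend. Two-sided p values were corrected by the Benjamini-Hochberg method over 22626 probe sets, and an adjusted p under 0.05 counted as past the threshold. The paper names no test for its arrays. The code was checked on simulated arrays. Replicates are separate preparations, named by array code, and the p values measure the spread between them. Of the probe sets, 20380 carried 1 symbol, 691 several and 1555 none in the platform annotation, which can be old.

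Named genes were all member probe sets, the 2 genes of most similar profile for each member whose brightest probe set was called with a log2 fold change of at least 1, the 2 largest rises and 2 largest falls among called genes of each further list of markers, partners, Cd44 modifiers and Ly6 relatives, by the brightest probe set, and Erbb2. Cell type lists were given by counts and sums, and the marker genes named from them were chosen after their values were seen. Members and lists were chosen with earlier results of these data known. Alternatives were the values as deposited, median centring, other pseudocounts, a filter on dim probe sets, other variance models, array weights, only the groups compared, other thresholds, averaged probe sets and each array left out. Plots were made in matplotlib 3.10.9 (Python 3.11.15).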

Additional observations from a re-analysis of the deposited data

How the results depend on the processing

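Of 1065 values recomputed (486 with 1 array left out and 579 under other settings), 13 calls were lost and 17 gained without a change of sign. Another 25 signs changed, 24 of them between values past the threshold in neither fit. The remaining sign change, Itgb1 1452545_a_at in diffMMS against MMS with median centring, also lost its call. Counts of member probe sets past the threshold stayed within 1.5 times the counts given, at 8 to 11 in TMS against MMS, 10 to 12 in TMS against diffMMS and 5 to 8 in diffMMS against MMS, and member genes at 4 to 6, 5 to 7 and 3 to 5. Averaging all probe sets of a gene was among the settings behind the gene counts. With values as deposited, the log2 fold change was -0.15 for Itgb1 1452545_a_at in TMS against MMS, and in diffMMS against MMS 0.0080 for Cd24a 1437502_x_at, -0.21 for Itgb1 1426918_at, 0.031 for Itgb1 1427771_x_at and 0.082 for Prom1. With median centring it was -0.19 for Itgb1 1452545_a_at and -0.0064 for Kit 1452514_a_at in TMS against MMS, and -0.25 for Itgb1 1426918_at, -0.040 for Itgb1 1452545_a_at and 0.033 for Prom1 in diffMMS against MMS. With array weights it was -0.16 for Kit 1452514_a_at in TMS against MMS and 0.0062 for Itgb1 1438119_at in TMS against diffMMS. The cause was not tested.

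With 1 array left out, values that changed sign ranged in TMS against MMS over -0.064 to 0.18 for Kit 1452514_a_at and -0.021 to 0.10 for Itgb1 1452545_a_at, in TMS against diffMMS over -0.031 to 0.024 for Itgb1 1438119_at, and in diffMMS against MMS over -0.024 to 0.12 for Itgb1 1426918_at, -0.073 to 0.11 for Prom1, -0.036 to 0.0038 for Cd24a 1437502_x_at and -0.12 to 0.016 for Itgb1 1427771_x_at. Over all probe sets, 3227 passed in TMS against MMS, 5849 with array weights, 1549 at an adjusted p of 0.01, 1201 with a log2 fold change of at least 0.5 required as well, and 1865 to 4081 with 1 array left out, the lowest 2 being 1865 without MMS array 859A and 1902 without 860A. In TMS against diffMMS 5360 passed, 3175 at 0.01, 2078 with the fold required and 4321 to 5639 with 1 array left out. In diffMMS against MMS the counts were 7495, 4456, 2707 and 5226 to 8360. Median centring changed the split of higher and lower calls to 1220 and 2366 in TMS against MMS (1470 and 1757 before) and to 2875 and 4691 in diffMMS against MMS (3664 and 3831 before). No paired analysis was possible because the labels give the arrays no replicate numbers shared between groups.

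The Cd44 probe set 1452483_a_at in diffMMS against MMS passed the threshold with median centring, no pseudocount, dim probe sets left out, array weights or only the 2 groups fitted, and Kit 1415900_a_at with array weights or only the 2 groups fitted. In TMS against MMS, Itgb1 1426920_x_at passed with median centring (-0.12) and array weights (-0.094), and 1427771_x_at with array weights (-0.19), all 3 as lower in TMS. Of the 18 member probe sets 5 had means below the 25th percentile of the array, and their differences rest on low signal. Probe sets without detection calls give no limit below which a transcript can be called absent.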
